A study of Mus musculus with 2 samples.

Results

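Gdf15 and 9 genes of the integrated stress response were followed in lung endothelial cells (ECs) 6 h after melanoma cells had entered the circulation. The genes were Atf4, Ddit3, Trib3, Asns, Chac1, Sesn2, Hspa5, Xbp1, Ddit4 and Gdf15, taken as a set by symbol, and the set was drawn up with earlier results of these data known. They filled 11 of the 32285 rows of the count matrices, which held 32245 symbols, because Ddit3 has a pair of rows. Wild-type (WT) C57BL/6 mice, adult males per the study's methods, received 100 µl of saline (PBS, control) or 400000 B16-F10 cells in the same volume through the tail vein. The B16-F10 line comes from a melanoma of mouse skin. Lungs were taken after 6 h, Pecam1+ Ptprc- cells were sorted as ECs, and melanoma cells carrying a green tracker dye were added back from the injected lungs. The labels give 2 mice per treatment, pooled into 1 single-cell library per group. Each difference below is therefore between 2 libraries and has no replicate check.

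The integrated stress response is set off when kinases that sense unfolded protein, missing amino acids, lack of heme or viral RNA phosphorylate the translation factor eIF2. General translation then slows while the mRNA of Atf4, a transcription factor, is translated more, and ATF4 turns on genes for amino acid synthesis and uptake, the factor CHOP (Ddit3) and feedback inhibitors such as Trib3. The unfolded protein response of the endoplasmic reticulum (ER) shares one of these kinases and adds a pair of further arms that act through Xbp1 splicing and ATF6, with the chaperone BiP (Hspa5) as a common target. Gdf15 encodes a secreted cytokine of the TGF-β superfamily that many stressed tissues release and that acts on a hindbrain receptor to lower food intake. The libraries count mRNA. They hold neither eIF2 phosphorylation nor ATF4 protein nor the spliced form of Xbp1.

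Sequences upstream of the members are shown first, because ATF4 and the ER stress factors bind known DNA elements. All 10 members matched the RefSeq promoter table of the mouse assembly GRCm38.p6, and the 250 bases before each start were searched on both strands. The ATF4 element (TGATGNAAN) was in 3.44% of the 32851 windows of that length, and among the members it was found before Asns and Chac1. The ER stress element (CCAAT and CCACG with 9 free bases between them), present in 0.113% of windows, was found before Hspa5. The AP-1 element (TGANTCA), in 6.75% of windows, was found before Ddit3 and Hspa5. The motifs overlap in no site printed here. Capitals mark the matching letters in these 30-base stretches, each given 5′ to 3′ on the strand of its gene. The Chac1 match lies on the opposite strand.

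Asns, chr6:7693213-7693242, minus strand, ATF4 element: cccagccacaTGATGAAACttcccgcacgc
Chac1, chr2:119351038-119351067, plus strand, ATF4 element: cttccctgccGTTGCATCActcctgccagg
Hspa5, chr2:34772020-34772049, plus strand, ER stress element: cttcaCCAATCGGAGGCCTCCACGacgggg
Hspa5, chr2:34771897-34771926, plus strand, AP-1 element: ccagtagccaaTGAGTCAgcccggggggcg
Ddit3, chr10:127290543-127290572, plus strand, AP-1 element: cgcgcgcaTGACTCActcacctcctccgcg

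The ATF4 element lay 23 bases before the Asns start and 194 before the Chac1 start, and the ER stress element 65 before the Hspa5 start. The stretches of Asns and Ddit3 and that with the ER stress element overlap an annotated exon in GENCODE M21. No member window held the ER stress element II (ATTGG and CCACG with 1 free base between them, 0.0304% of windows) or the unfolded protein response element (TGACGTGG, 0.563% of windows). The 250 bases before the Gdf15 start, on chr8:70632457-70632706 (minus strand, 56.4% G or C), held none of these 5 motifs. They are printed because Gdf15 had the most uneven level of the members between the capillary classes.

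Gdf15, bases before the start: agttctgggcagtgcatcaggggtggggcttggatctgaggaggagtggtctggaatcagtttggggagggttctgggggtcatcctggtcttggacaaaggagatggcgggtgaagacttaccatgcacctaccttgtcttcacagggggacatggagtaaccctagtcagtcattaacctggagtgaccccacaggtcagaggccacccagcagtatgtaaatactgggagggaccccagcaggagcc

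A match is a description of letters. Its absence says only that these letters are not in this window.

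Levels are unique molecular identifiers (UMIs, 1 per captured RNA molecule) summed over the cells of a class and divided by all UMIs of that class and library to give CPM, a share of the class total, and carry exact 95% Poisson limits. Ratios divide the B16-F10 level by that of the control, are given as log2 values and carry exact conditional binomial 95% limits. All of these intervals cover counting error only. A gene counted as measured with at least 50 UMIs over both libraries, and as higher or lower when its log2 ratio passed 0.5 in size. Sequencing gave 85794655 UMIs for the control and 104978816 for metastatic lungs, and the filters left 7830 and 7767 cells, whose median was 7498.5 and 8556 UMIs. General capillary (gCap-like) ECs numbered 4827 in the control and 4318 in the B16-F10 library, aerocyte (aCap-like) ECs 1443 and 967, artery-like ECs 185 and 140, vein-like ECs 313 and 315, and lymphatic (LEC-like) ECs 56 and 50. An EC cluster with Csf2 as its leading gene and no vessel class held 11 control and 341 B16-F10 cells. Doubtful mixed clusters, 797 and 1394 cells, and the 79 melanoma-like cells of the B16-F10 library were kept out of the ECs. The libraries shared 19 cell barcodes. RNA released by other cells made up an estimated 2.12% of gCap-like UMIs in the control and 3.79% in the B16-F10 library.

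Gdf15 (chr8:70629393-70632456, minus strand) had its highest EC level in aCap-like cells in both lungs and was higher in both capillary classes of the metastatic lungs. In aCap-like ECs 546 UMIs of the control library gave 41.8 CPM (38.4 to 45.5) and 1127 UMIs of the B16-F10 library gave 104 CPM (97.8 to 110), a 2.48-fold difference and a log2 ratio of 1.31 (1.16 to 1.46). In gCap-like ECs 58 UMIs gave 1.61 CPM (1.22 to 2.08) in the control and 156 UMIs gave 4.16 CPM (3.53 to 4.86) in the B16-F10 library, a log2 ratio of 1.37 (0.93 to 1.83). The ratios thus had nearly the same size in both classes, and their difference, aCap-like minus gCap-like, was -0.06 with an interval of -0.54 to 0.41. The level did not: aCap-like ECs stood 4.70 log2 units above gCap-like ECs without melanoma cells and 4.64 units above them with melanoma cells. They held 88.1% of the Gdf15 UMIs of all ECs in the control and 80.6% in the B16-F10 library.

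Few Gdf15 UMIs were counted in the larger vessels, whose classes are small. Artery-like ECs had 1 UMI in the control and 2 in the B16-F10 library, LEC-like ECs 1 and 0, and vein-like ECs 6 and 9, too few for a ratio. The vein-like level was 1.83 CPM in the control and 2.54 CPM in the B16-F10 library. Against gCap-like ECs the log2 intervals of these classes include 0 in both libraries, at 0.18 (-1.32 to 1.39) for control vein-like ECs. A level below that of gCap-like ECs was therefore not shown. Csf2-led ECs of the B16-F10 library held 104 UMIs and 30.9 CPM (25.2 to 37.4), between the gCap-like and aCap-like levels. Their 11 control cells held 0 UMIs and gave no usable level. Melanoma-like cells had 0 Gdf15 UMIs. The mixed clusters went the other way, with 54 UMIs and 10.4 CPM in the control and 46 UMIs and 5.81 CPM in the B16-F10 library, a log2 ratio of -0.84 (-1.44 to -0.24). Macrophage- or monocyte-like cells held 28 UMIs in 6 control cells and 6 UMIs in 37 B16-F10 cells.

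Free RNA bears on the low gCap level. In barcodes with at most 100 UMIs, which hold free RNA and not cells, Gdf15 stood at 16.4 CPM in the control and 28.8 CPM in the B16-F10 library. At the free-RNA shares estimated above, this source would supply 0.348 of the 1.61 CPM in control gCap-like ECs and 1.09 of the 4.16 CPM in the B16-F10 library. With that supply subtracted the gCap-like log2 ratio was 1.28. The 14 genes behind the estimate gave shares of 1.17% to 8.38% in the control and 1.39% to 14.7% in the B16-F10 library, and at the highest of these the supply would be 1.37 and 4.23 CPM, most or all of the gCap-like level. How much Gdf15 gCap-like ECs express themselves is therefore not settled by these libraries. In aCap-like ECs the supply was 0.501 of 41.8 CPM and 0.646 of 104 CPM.

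**Figure D1:**
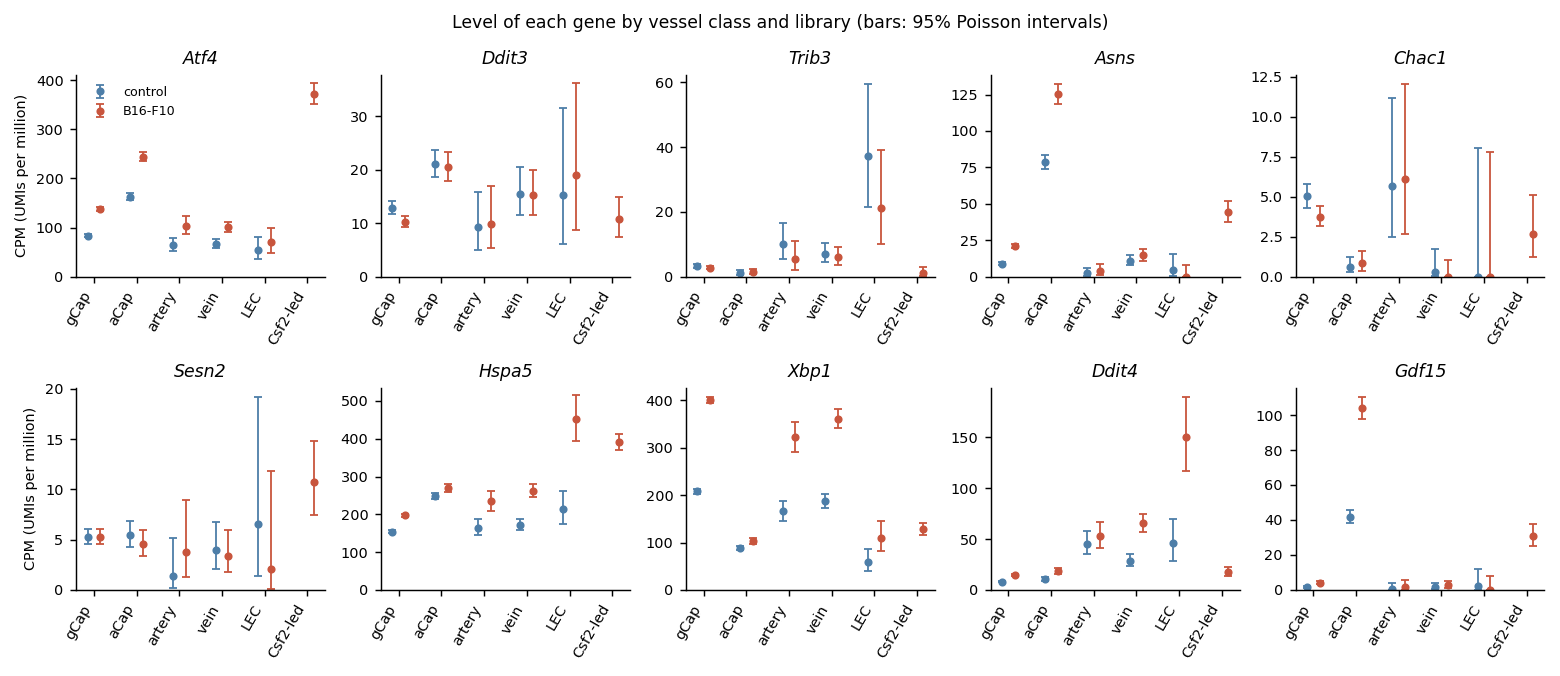
Level of each of the 10 genes (CPM, linear axis) in the 5 vessel classes of both libraries and in Csf2-led ECs of the B16-F10 library, with exact Poisson 95% intervals that cover counting error only. Gdf15 and Asns lie highest in aCap-like ECs among the vessel classes of both libraries, while Xbp1 lies higher in gCap-like than in aCap-like ECs.

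Atf4 (chr15:80255184-80257541, plus strand), the transcription factor at the centre of the response, was higher in the B16-F10 library in the capillary, artery-like and vein-like ECs. In gCap-like ECs it went from 83.1 CPM (2998 UMIs) to 137 CPM (5149 UMIs), a log2 ratio of 0.72 (0.66 to 0.79). In aCap-like ECs it went from 163 to 244 CPM, 0.58 (0.50 to 0.67). The aCap-like level was the higher one in both libraries and its ratio the smaller one, by -0.14 (-0.25 to -0.03). Artery-like ECs had 63.8 and 104 CPM, a log2 ratio of 0.70 (0.31 to 1.10), and vein-like ECs 66.9 and 101 CPM, 0.59 (0.35 to 0.84). In LEC-like ECs, with 25 and 33 UMIs, the ratio of 0.36 had an interval of -0.44 to 1.17 that spans 0. Csf2-led ECs of the B16-F10 library held 373 CPM (352 to 394), the highest Atf4 level among the EC classes.

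Asns (chr6:7675169-7693254, minus strand), which makes asparagine and is a direct ATF4 target, shared the class order of Gdf15. It stood at 8.96 CPM (323 UMIs) in control gCap-like ECs and 20.8 CPM (782 UMIs) in those of the B16-F10 library, a 2.33-fold difference and a log2 ratio of 1.22 (1.03 to 1.41). In aCap-like ECs it went from 78.8 CPM (1028 UMIs) to 125 CPM (1360 UMIs), 0.67 (0.55 to 0.79). The ratio was larger in gCap-like ECs, with an aCap-like minus gCap-like difference of -0.55 (-0.77 to -0.33). So the aCap-like level, 3.14 log2 units above the gCap-like level in the control, was 2.59 units above it in the B16-F10 library. The share of EC Asns UMIs held by aCap-like cells was 73.2% in the control and 57.7% in the B16-F10 library. Vein-like ECs had 36 and 52 UMIs, with a ratio of 0.42 (-0.22 to 1.08), smaller than in gCap-like ECs by -0.79 (-1.46 to -0.11). Artery-like and LEC-like ECs held at most 5 UMIs in a library.

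Xbp1 (chr11:5520659-5525893, plus strand), the transcription factor of the IRE1 arm, was almost doubled in every vessel class but aCap. Its gCap-like level was 208 CPM (7492 UMIs) in the control and 402 CPM (15076 UMIs) in the B16-F10 library, a log2 ratio of 0.95 (0.91 to 0.99). Artery-like ECs gave 0.96 (0.72 to 1.19), vein-like ECs 0.95 (0.81 to 1.09) and LEC-like ECs 0.90 (0.21 to 1.63). In aCap-like ECs the levels were 88.4 and 103 CPM, a ratio of 0.22 (0.10 to 0.34), smaller than in gCap-like ECs by -0.73 (-0.85 to -0.60). Xbp1 is on the study's marker list of reactive capillaries (rCap), gCap ECs with an altered state in metastatic lungs, and that list was drawn in part from these libraries. Its gCap ratio is therefore no independent evidence.

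Hspa5 (chr2:34771970-34777547, plus strand), the ER chaperone BiP, differed little in the capillaries and most in the lymphatics. The gCap-like log2 ratio was 0.36 (0.31 to 0.41), from 153 to 197 CPM, and the aCap-like ratio 0.12 (0.05 to 0.19), from 248 to 269 CPM. Vein-like ECs went from 173 to 262 CPM, 0.60 (0.45 to 0.75), and artery-like ECs from 165 to 235 CPM, 0.51 (0.26 to 0.76). LEC-like ECs went from 214 CPM (98 UMIs) to 451 CPM (213 UMIs), a 2.11-fold difference and a log2 ratio of 1.08 (0.73 to 1.44). The LEC-like ratio exceeded that of gCap-like ECs by 0.72 (0.36 to 1.08). These LEC-like values rest on 56 and 50 cells. Melanoma-like cells held 1154 CPM of Hspa5, above every EC class.

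Ddit4 (chr10:59949669-59951834, minus strand), which encodes REDD1, an inhibitor of the growth kinase mTORC1, was also higher in most vessel classes. It went from 8.21 to 14.6 CPM in gCap-like ECs, a log2 ratio of 0.83 (0.63 to 1.04), and from 10.3 to 18.6 CPM in aCap-like ECs, 0.85 (0.53 to 1.17). Vein-like ECs went from 28.6 CPM (94 UMIs) to 65.6 CPM (232 UMIs), 1.20 (0.84 to 1.56). LEC-like ECs went from 45.8 CPM (21 UMIs) to 150 CPM (71 UMIs), 1.71 (1.00 to 2.49), which is more than gCap-like ECs by 0.88 (0.13 to 1.69). Artery-like ECs, at 45.3 and 52.7 CPM, gave 0.22 (-0.30 to 0.73), less than gCap-like ECs by -0.62 (-1.17 to -0.06).

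The remaining ATF4 targets were not higher in the B16-F10 library. Ddit3 (chr10:127290774-127296288, plus strand) encodes CHOP, which favours cell death under lasting ER stress. It went from 12.9 to 10.2 CPM in gCap-like ECs, a log2 ratio of -0.33 (-0.53 to -0.14), and from 21.1 to 20.5 CPM in aCap-like ECs, -0.04 (-0.31 to 0.22). Its second row, an annotated gene lying inside the first, held 0 UMIs, so reads that both genes could claim may be missing from these values. Chac1 (chr2:119351229-119354381, plus strand), which breaks down glutathione, went from 5.02 to 3.76 CPM in gCap-like ECs, -0.42 (-0.75 to -0.09). That ratio ranged from -0.54 to -0.04 over the processing alternatives, and the gCap-like clusters described below differed in sign. The Esm1-led cluster, with 102 and 28 UMIs, gave -1.05 (-1.71 to -0.44). In the Ntrk2-led cluster Chac1 was higher, at 10 and 29 UMIs (log2 interval 0.418 to 2.697). The Sox11-led and Chrm2-led clusters gave -0.05 and 0.68, with intervals that span 0. The clusters led by Lalba and Gm20631 held 0 UMIs in a library. Unlike Gdf15, Chac1 was low in aCap-like ECs, which held 8 and 9 UMIs (0.613 and 0.829 CPM). Artery-like ECs, with 8 UMIs in each library, stood at 5.67 and 6.11 CPM, with intervals that include the gCap-like levels. Trib3 (chr2:152337422-152344032, minus strand), a pseudokinase that restrains ATF4 and CHOP, stood at 3.24 and 2.69 CPM in gCap-like ECs, -0.27 (-0.67 to 0.13), and had its highest level in LEC-like ECs, at 37.1 CPM (17 UMIs) and 21.2 CPM (10 UMIs). Sesn2 (chr4:132492032-132510501, minus strand), a leucine sensor that restrains mTORC1, stood at 5.24 and 5.27 CPM there, 0.01 (-0.29 to 0.30), and gave -0.27 (-0.83 to 0.28) in aCap-like ECs. The intervals of Trib3 and Sesn2 span 0. That of Sesn2 in gCap-like ECs lies within the threshold of 0.5, and that of Trib3 reaches past -0.5.

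**Figure D2:**
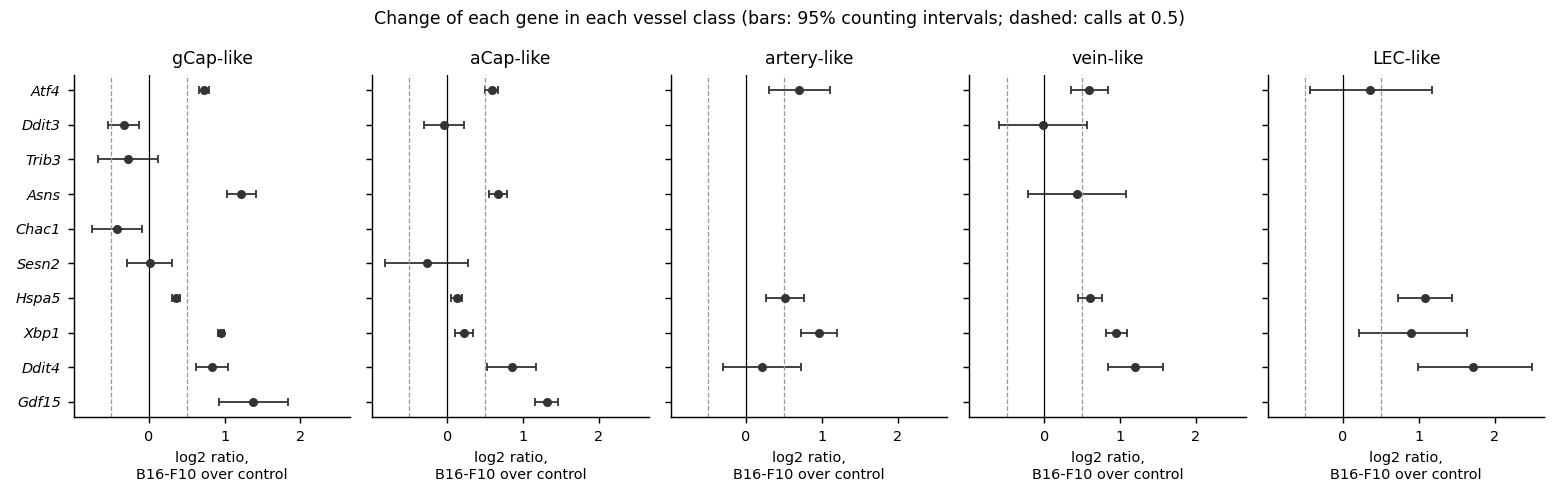
Log2 ratio of B16-F10 over control for each member measured in a vessel class, with exact conditional binomial 95% intervals that cover counting error only and dashed lines at 0.5 and -0.5. Atf4, Asns and Gdf15 lie above 0 in both capillary classes, Xbp1 is near 0.95 in gCap-like, artery-like and vein-like ECs but at 0.22 in aCap-like ECs, and Ddit3, Trib3, Chac1 and Sesn2 lie at or below 0 in gCap-like ECs.

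Counted together, 5 of the 10 members were higher and 0 lower in gCap-like ECs, against 9.46% higher and 12.3% lower of the 13193 measured genes. The set was chosen with such results known, so these counts describe it and do not support it. Their median log2 ratio was 0.54, against -0.03 over all measured genes. In aCap-like ECs 4 of 8 measured members were higher (background 9.43%) with a median of 0.40 against 0.01. Artery-like ECs had 3 of 4 higher (background 13.3%), vein-like ECs 4 of 6 (7.15%) and LEC-like ECs 3 of 4 (11.4%). Over all ECs summed, 5 of 10 were higher (9.92%) and 0 lower (14.2%). Atf4, Asns, Gdf15 and Ddit4 were higher in both capillary classes, and Xbp1 was higher in gCap-like but not in aCap-like ECs. Hspa5 and Xbp1 were higher in artery-like, vein-like and LEC-like ECs. Atf4 joined them in artery-like and vein-like ECs, and Ddit4 in vein-like and LEC-like ECs. The artery-like Hspa5 ratio of 0.51 was just past the threshold and stayed past it in only 4 of 11 processing alternatives. No measured member passed -0.5 in these 5 classes. The background of lower genes was 11% in aCap-like, 11.4% in artery-like, 7.74% in the vein-like class and 11% among LEC-like ECs.

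Cells that were almost absent from the control library had member levels of their own. Csf2-led ECs of the B16-F10 library combined the high Atf4 level (373 CPM) with Asns at 44.5 CPM, between the gCap-like and aCap-like levels, and with Hspa5 at 392 CPM, above both. Their Xbp1 level, 128 CPM, was nearer to that of aCap-like ECs, and Ddit4 stood at 17.5 CPM. Melanoma-like cells held 299 CPM of Asns and 120 CPM of Ddit3, both above the levels of the 5 vessel classes, besides Hspa5, while Gdf15 was at 0 UMIs.

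The gCap-like class was made of 6 clusters, and the reactive one differed in size between the lungs. It had Lalba as its leading gene and held 73 control and 978 B16-F10 cells. Atf4 was higher in the B16-F10 library within each of the 6 clusters, by 0.38 to 0.96, and Asns by 0.63 to 1.49, with intervals of Asns that span 0 in the clusters led by Lalba and Gm20631. Xbp1 differed more between clusters. It went from 384 to 855 CPM in the Lalba-led cluster, a log2 ratio of 1.16 (0.96 to 1.35), and by 0.30 to 0.46 in 4 of the others, with 1.10 in the one led by Gm20631. Gdf15 gave 1.59 (0.71 to 2.49) in the Sox11-led cluster and 1.21 (0.29 to 2.15) in the Esm1-led one, but 0.23 in the Lalba-led cluster, where the control held 4 UMIs. The clusters led by Chrm2, Ntrk2 and Gm20631 gave 0.54, 0.70 and 0.03 for Gdf15, with at most 18 UMIs in a library. In these clusters and the Lalba-led one the interval spanned 0. With the Lalba-led cluster left out, the gCap-like ratios were 0.93 for Gdf15, 0.96 for Asns, 0.85 for Ddit4, 0.47 for Atf4, 0.31 for Xbp1 and 0.22 for Hspa5, so 3 of 10 members stayed at or above 0.5 (background 6.98%).

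Within aCap-like ECs a pair of clusters behaved alike for Gdf15. The main one, led by Ccdc184, held 806 control and 895 B16-F10 cells. The other, led by Tmeff2, held 637 and 72 cells with a low median of 5258 UMIs, and it was thus mostly a control population. In the Ccdc184-led cluster Gdf15 went from 51.5 CPM (460 UMIs) to 106 CPM (1110 UMIs), a log2 ratio of 1.04 (0.89 to 1.20), and in the Tmeff2-led cluster from 20.9 to 42.4 CPM, 1.02 (0.17 to 1.78). Atf4 gave 0.31 (0.22 to 0.40) in the Ccdc184-led cluster and Asns, from 99.1 to 129 CPM, gave 0.38. In the Tmeff2-led cluster Atf4 gave 0.54 (0.07 to 0.98), whereas Asns was at 34.6 CPM (142 UMIs) in the control and 19.9 CPM (8 UMIs) in the B16-F10 library, -0.79 (-2.03 to 0.22), opposite in sign to the ratio of the whole class. The aCap-like ratios of Atf4 and Asns therefore passed 0.5 only with the Tmeff2-led cluster included, and that of Gdf15 passed it with and without.

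**Figure D3:**
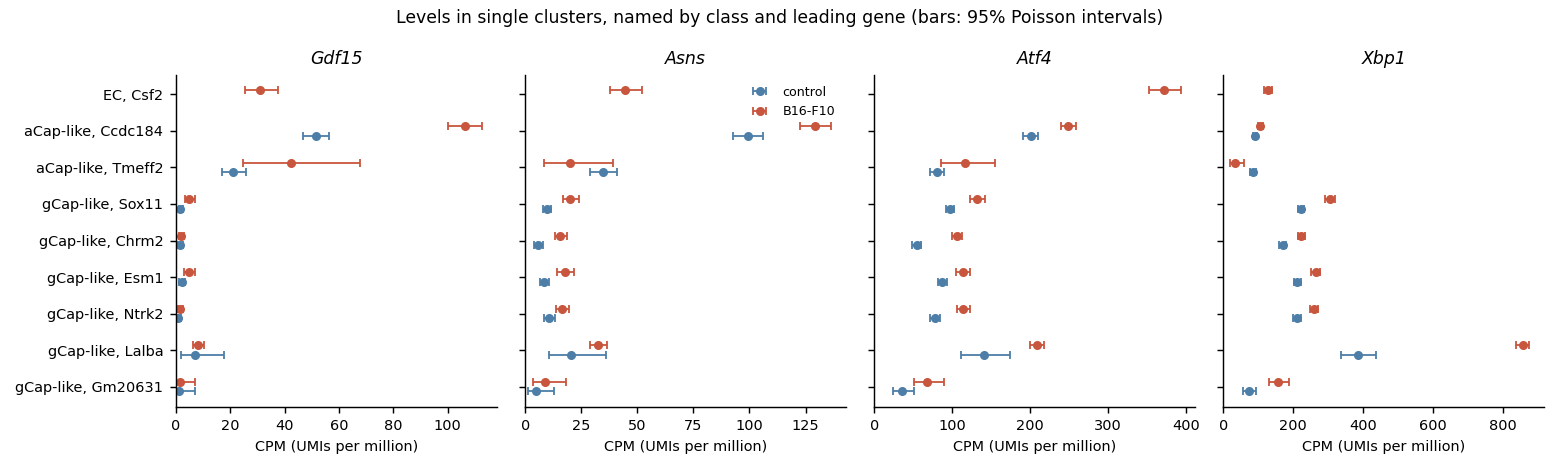
Levels of Gdf15, Asns, Atf4 and Xbp1 (CPM, linear axis) within each gCap-like and aCap-like cluster and the Csf2-led cluster in both libraries, with exact Poisson 95% intervals. Atf4 lies higher in the B16-F10 library in all 6 gCap-like clusters, and Gdf15 is higher in both aCap-like clusters.

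The gCap-like cells were also ordered by their summed UMIs of 49 rCap markers, Xbp1 left out, counted after thinning each cell to 2000 UMIs, while the levels below use all UMIs of those cells. Of the control cells, 2808 fell in the low range, 1577 in the middle and 380 in the high range, against 487, 1253 and 2549 of the B16-F10 cells. Xbp1 in the low range was 192 CPM in the control and 185 in the B16-F10 library, and 217 and 206 CPM in the middle range. It was 293 and 537 CPM in the high range, where the log2 ratio was 0.87 (0.77 to 0.98). Xbp1 thus separated the libraries in the high range and not in the lower ranges. The high range has no upper limit, so its cells are not matched between the libraries in marker sum. Atf4 was higher in all 3 ranges, with 79.8, 88.6 and 86.7 CPM from low to high in the control and 102, 108 and 158 CPM in the B16-F10 library. Its high-over-low log2 ratio was 0.12 (-0.08 to 0.32) in the control and 0.62 (0.48 to 0.77) in the B16-F10 library. Ddit4 showed the opposite order of ratios, 1.03 (0.60 to 1.45) in the low range and 0.74 (0.12 to 1.42) in the high range, with intervals that overlap. Gdf15 was higher with more rCap markers in both libraries, from 1.09 to 3.67 CPM in the control and from 1.67 to 4.99 CPM in the B16-F10 library. Within each range its B16-F10 over control interval included 0. The rCap list was drawn in part from these libraries, so these ranges describe the cells and do not test the list.

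**Figure D4:**
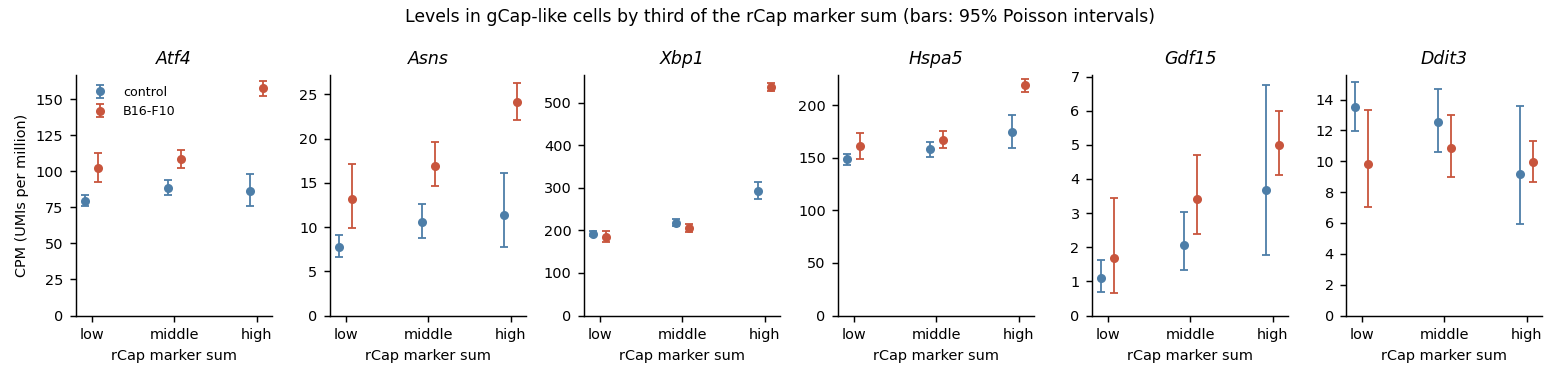
Levels of Atf4, Asns, Xbp1, Hspa5, Gdf15 and Ddit3 (CPM, from all UMIs of a cell) in gCap-like ECs of both libraries in 3 ranges of the summed UMIs of 49 rCap markers, with exact Poisson 95% intervals. Xbp1 separates between the libraries in the high range (293 and 537 CPM), while Atf4 lies higher in the B16-F10 library in all 3.

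Gdf15 UMIs were found in few cells at a depth where a missing UMI does not show a missing transcript. With every cell thinned to 2000 UMIs, 69 of 1426 control aCap-like cells (4.84%, exact binomial 95% interval 3.78 to 6.08) and 96 of 961 B16-F10 cells (9.99%, 8.17 to 12.1) held a Gdf15 UMI. Without thinning 11.4% and 23.2% of cells were positive, the median cell holding 9111 and 11352 UMIs, and 17 control and 6 B16-F10 cells were too shallow to thin. In gCap-like ECs the thinned shares were 0.273% (13 of 4765) and 0.956% (41 of 4289), or 0.912% and 1.97% without thinning, where the median cell held 7290 and 8391.5 UMIs. Artery-like ECs had 0 of 180 control cells, which allows a share of up to 2.03%, and 0 of 138 B16-F10 cells, which allows 2.64%, at unthinned medians of 7460 and 9464.5 UMIs. Vein-like ECs had 0 of 313, which allows 1.17%, and 2 of 315 (0.635%). These limits reflect the small number of cells and include the gCap-like shares, so a difference of gCap-like from artery-like or vein-like ECs was not detectable by share. The aCap-like intervals lie above them. More than a single UMI was seen in 14 of the 69 positive control cells and in 47 of the 96 positive B16-F10 cells.

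Positive aCap-like cells of the B16-F10 library were also those with more Atf4. Cells with a Gdf15 UMI held 411 CPM of Atf4 and cells without held 222 CPM, a log2 ratio of 0.89 (0.52 to 1.24). For Asns the levels were 177 and 109 CPM, 0.70 (0.13 to 1.24). Hspa5 gave 0.33 (-0.08 to 0.72). In the control library the same ratios were -0.27 (-1.07 to 0.42) for Atf4 and 0.03 (-1.06 to 0.94) for Asns. The cells of 1 library are not replicates, and these intervals cover counting error only. Atf4 itself was found in 24.2% of thinned control aCap-like cells and 36.3% of B16-F10 cells, in 14.5% and 22.1% of gCap-like cells, and in 53.3% of Csf2-led cells of the B16-F10 library.

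The rest of the pathway was read from 18 lists ordered by role, here in gCap-like ECs unless another class is named. All list counts are to be read against the background, 9.46% higher and 12.3% lower of all measured genes in gCap-like ECs. In aCap-like ECs it was 9.43% and 11%. Upstream, 0 of 4 measured eIF2 kinases were higher, and Eif2ak3 (PERK), the ER stress kinase, was lower at -0.53 (-0.67 to -0.39). Of the 8 subunits of eIF2 and eIF2B 2 were higher, Eif2s1 at 0.61 and Eif2s2 at 0.53, and 0 were lower. Ppp1r15a, the stress-induced phosphatase subunit GADD34 that reverses eIF2 phosphorylation, was at 0.49 (0.39 to 0.59), just under the threshold.

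Downstream, the amino acid lists have the same background, 9.46% higher and 12.3% lower. Of 8 amino acid transporters 6 were higher and 1 lower, with a median of 0.93. Slc7a11, the cystine importer and also an NRF2 target, went from 0.61 to 3.06 CPM, 2.33 (1.66 to 3.06), and Slc7a5, a large neutral amino acid importer, from 0.36 to 1.52 CPM, 2.07 (1.19 to 3.07). Slc6a9, a glycine transporter, was lower at -0.52 (-0.76 to -0.29), and Slc38a2 gave 0.05. Without the Lalba-led cluster the transporter median was 0.42. Of 8 measured genes of amino acid synthesis 3 were higher, Phgdh of the serine pathway with 18 and 53 UMIs (log2 interval 0.71 to 2.36) and Aldh18a1 of the proline pathway at 1.07 (0.59 to 1.56) among them, while Pck2 gave -0.37 (-0.56 to -0.19). Of 11 tRNA synthetases 2 were higher, Wars from 90.0 to 180 CPM at 1.00 (0.94 to 1.06) and Aars at 0.52 (0.38 to 0.66), and 0 were lower. In aCap-like ECs 4 of 7 measured transporters and 0 of 11 tRNA synthetases were higher.

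Among 7 factors that pair with ATF4 3 were higher and 0 lower. Atf3 went from 10.3 to 68.1 CPM in gCap-like ECs, 2.72 (2.57 to 2.88), and from 7.36 to 38.7 CPM in aCap-like ECs, 2.39 (2.07 to 2.73). Cebpb went from 9.26 to 27.1 CPM, 1.55 (1.37 to 1.73). Both are also early response genes. Early response genes that cell isolation is known to move differed as a list: 5 of 9 were higher and 2 lower, with a median of 1.35. Egr1 went from 10.2 to 135 CPM and Junb from 158 to 754 CPM, while the heat shock gene Hspa1b was lower, at 387 and 150 UMIs. The part of cell isolation in the members' ratios was not tested.

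The arms of the ER stress response were mostly flat. Of 16 ER chaperones and folding enzymes 1 was higher and 1 lower with a median of 0.13, Creld2 at 0.57 (0.43 to 0.72) and Dnajb9, a target of spliced Xbp1, at -0.61 (-0.70 to -0.52). Of 11 measured genes of ER-associated degradation and the translocon 0 were higher and 0 lower, Sec61b at 0.31 and Herpud1 at -0.41 being the extremes. The 5 measured genes of the sensor list, with Ern1 (IRE1) at -0.31 and Atf6 at -0.24, also gave 0 and 0. That list includes Atf6b and the ATF6 proteases Mbtps1 and Mbtps2 and leaves out the sensor Eif2ak3, which is given above. The member Xbp1 stood at 0.95 with the Lalba-led cluster and at 0.31 without it, the latter the same as Sec61b with all clusters. Of 5 CHOP death targets Tnfrsf10b at 0.62 and Pmaip1 at 0.61 were higher and Bcl2l11, which encodes the death protein BIM, was lower at -1.14 (-1.25 to -1.02). Genes that restrain mTORC1 gave 0 higher and 3 lower of 5, with Sesn3 at -0.84 and Sesn1 at -0.72, opposite in sign to the member Ddit4.

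Other programmes that can raise the members were listed too, with the same background of 9.46% higher and 12.3% lower. Counts of 1 or 2 genes in such short lists are not results about a list. Of 8 p53 targets 2 were higher and 1 lower, with Cdkn1a at 0.90 (0.86 to 0.93) in gCap-like but -0.13 in aCap-like ECs. In aCap-like ECs, where the background was 9.43% higher and 11% lower, 2 of the 8 were higher and 0 lower, with a median of -0.02. Of 7 glucocorticoid targets, a group that shares Ddit4 with this response, 2 were higher and 1 lower, Fkbp5 at 1.39 and Tsc22d3 at -0.53. Of 6 measured hypoxia targets Ndrg1 was higher at 1.81 (1.63 to 1.99) and Ankrd37 lower at -0.64, with a median of -0.05. In aCap-like ECs 2 of 4 measured hypoxia targets were higher and 0 lower, with a median of 0.83. The glucocorticoid list gave 0 higher and 2 lower of 7 there, with a median of -0.17. The 6 NRF2 targets, the antioxidant programme, had 3 higher and 0 lower in gCap-like ECs and 5 higher and 0 lower in aCap-like ECs, where the median was 1.00. Srxn1 went from 134 to 292 CPM in aCap-like ECs, 1.13 (1.04 to 1.21), and Hmox1, with 511 and 1084 UMIs, from 39.2 to 99.9 CPM, a log2 ratio of 1.35, against 0.14 (-0.03 to 0.31) for Hmox1 in gCap-like ECs. Gfral and Ret, which form the receptor of GDF15, were under 50 UMIs and gave no ratio.

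**Figure D5:**
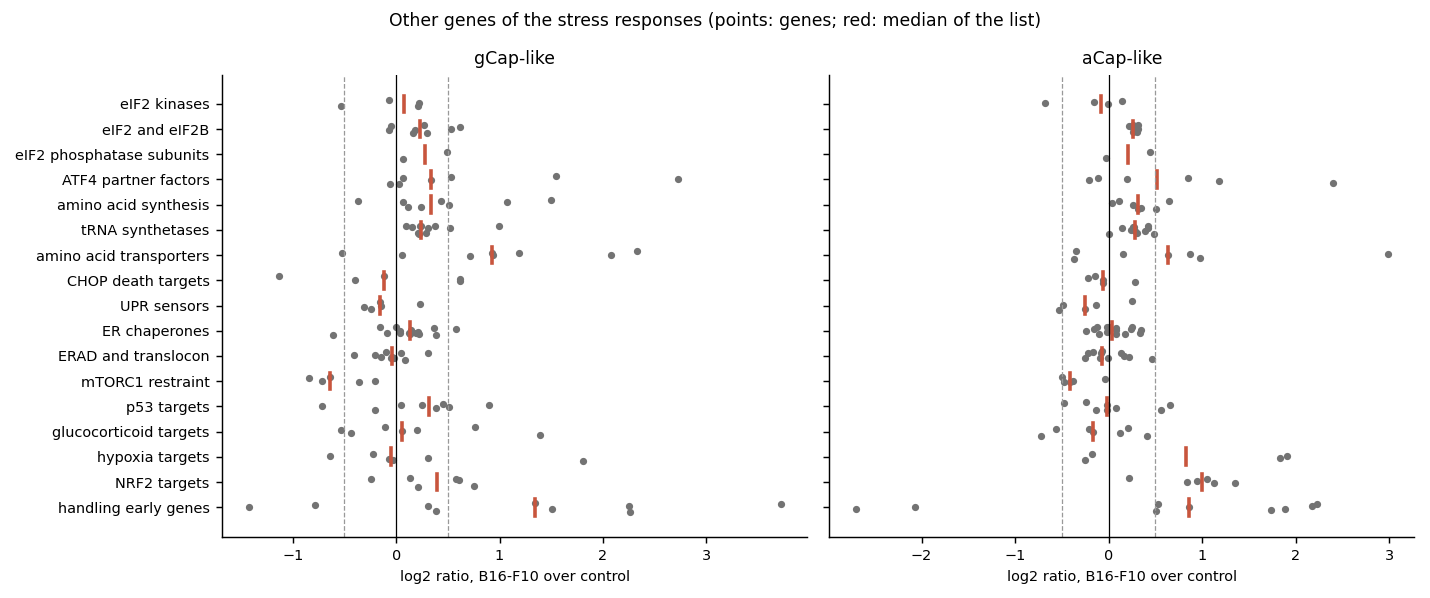
Log2 ratio of B16-F10 over control in gCap-like and aCap-like ECs for the measured genes of each pathway list (points) with the median of each list (red line) and dashed lines at 0.5 and -0.5. In gCap-like ECs amino acid transporters (median 0.93) and early response genes of cell isolation (median 1.35) have medians above 0.5, and ER chaperones (0.13) lie near 0.

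Across 10 points, the vessel classes of each library, Gdf15 was most like Cd151 (Pearson r = 0.990 of log2(CPM + 1)), Apln (0.982) and Rgs6 (0.974) of 11900 genes. Apln is one of the aCap markers that named the class. Gdf15 was also close to Asns (0.927) and Atf4 (0.872) and not to Xbp1 (-0.304). Atf4 was most like Ube2d3 (0.983), Ftl1 (0.968) and Psmd3 (0.963), and Hspa5 most like Zfp598 (0.922), Nup205 (0.905) and Mpv17 (0.905). The points share 2 libraries and their cell classes, so these values describe the order of classes.

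RNA of other cells moved with the library as well. In gCap-like ECs the summed melanoma markers stood at 27.1 CPM in the control and 53.1 CPM in the B16-F10 library. Of the 8 markers, 5 and 8 had a UMI. A single marker gave 26.1 CPM of the control sum, while the highest marker of the B16-F10 library gave 19.4 CPM. The other melanoma markers thus differed by more than the sums. Macrophage and monocyte markers stood at 17.4 and 33.7 CPM. Neutrophil markers gave 2.97 and 8.58 CPM, mural markers 24.1 and 39.7 CPM, epithelial markers 202 and 170 CPM, and platelet markers 29.0 and 28.6 CPM. The vessel classes with the larger Hspa5 and Ddit4 ratios had such differences too. In LEC-like ECs macrophage and monocyte markers stood at 24.0 and 146 CPM, of which a single marker gave 127 CPM, and melanoma markers at 15.3 and 69.9 CPM. In vein-like ECs red cell markers stood at 518 and 3325 CPM, macrophage and monocyte markers at 13.7 and 32.5 CPM and melanoma markers at 15.8 and 37.9 CPM, with estimated free-RNA shares of 1.14% and 5.58%. Of the control melanoma sums, a single marker gave 13.1 CPM in LEC-like and 15.5 CPM in vein-like ECs. Macrophage- or monocyte-like cells of the B16-F10 library held 561 CPM of Hspa5 and 1 UMI of Ddit4. With free RNA subtracted the log2 ratios were 1.08 for Hspa5 and 1.72 for Ddit4 in LEC-like ECs and 0.55 and 1.18 in vein-like ECs. In cells with no UMI of the melanoma, platelet, mural, macrophage, monocyte and neutrophil markers Hspa5 gave 1.44 in LEC-like and 0.45 in vein-like ECs and Ddit4 gave 0.88 in vein-like ECs.

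Of the gCap-like ECs, 2832 control and 1508 B16-F10 cells had no UMI of these same 5 marker lists. Ratios among them were 1.77 for Gdf15, 1.34 for Asns, 0.90 for Xbp1, 0.76 for Atf4 and 0.95 for Ddit4. In 844 and 342 such aCap-like cells they were 1.21 for Gdf15, 0.79 for Asns and 0.60 for Atf4. These ratios were as large as in the whole classes, or nearly so, where the markers were at 0. The 5 lists hold no aCap, red cell or epithelial marker, so free RNA of such cells was not screened out. The selection also kept unlike shares of the libraries, 2832 of 4827 control and 1508 of 4318 B16-F10 gCap-like cells.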

How the data were processed

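The deposited files are raw UMI counts per gene and barcode. The authors made them with Cell Ranger 7.2.0 and the mm10 genome, per the submitters' processing notes, which also name Seurat 4.4.0. The study's methods give another Cell Ranger version, the labels name a v2 kit, and whether intronic reads were counted is not given in the sources used here. The study's methods also give another number of mice than the labels.

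The study's cell limits were applied (1000 to 5000 genes, mitochondrial UMIs below 20%). Scrublet in scanpy 1.11.5 scored doublets, and the top 564 control and 554 B16-F10 cells were removed at 0.8% per 1000 cells. Cells were clustered (leidenalg 0.10.2, resolution 0.8, 30 components, 20 neighbours) on 2921 variable genes without the members, pathway lists and rCap markers, which gave 23 clusters. A class needed at least 3 markers and at least 50% of its list, and ECs at least 6 of 8 endothelial markers. The naming rule was set after clusters had been seen, and clusters with markers of another cell type were called mixed. UMIs were summed per class and library. With 1 library per group no test was run and no p-value is given. The Python code (NumPy 2.4.6, pandas 2.3.3, SciPy 1.17.1) was tested on simulated data with known ratios. Free RNA was estimated from barcodes with at most 100 UMIs and 14 genes of other cells. Differences between ratios have intervals built from both ratios' intervals. Gene positions come from GENCODE M21 (GRCm38) and sequences from RefSeq.

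Members and lists were chosen with earlier results of these data known. Named were all members, from each list the pairs of genes with the highest and lowest gCap-like ratio among those with at least 50 UMIs, and for Gdf15, Atf4 and Hspa5 the 3 genes most correlated over classes (at least 200 UMIs, pseudocount 1). Hmox1 and Cdkn1a in aCap-like ECs, and cluster names, follow from those names or from each cluster's leading gene. Alternatives covered the cell limits, doublets, clustering, UMI minimum, scaling, thinning, free RNA, other cells' markers and clusters left out.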

Additional observations from a re-analysis of the deposited data

Results flagged for a closer look

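For 3 members the ratios of the aCap-like clusters had opposite signs. Hspa5 had a log2 ratio of B16-F10 over control of 0.10 in the Ccdc184-led cluster and -0.42 in the Tmeff2-led one, Xbp1 had 0.23 and -1.26, and Asns had 0.38 and -0.79, the last with 8 B16-F10 UMIs and an interval of -2.03 to 0.22. The Tmeff2-led cluster held 72 B16-F10 cells, and the difference itself was not tested.

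Barcodes outside the cell limits also carried more of several members in the B16-F10 library and less of others. Of these barcodes the main results use only those with at most 100 UMIs, for free RNA. With at most 100 UMIs the log2 ratios were 0.45 for Atf4, 0.72 for Asns, 0.25 for Hspa5, 0.74 for Xbp1, 0.62 for Ddit4 and 0.81 for Gdf15. Barcodes with more UMIs but under 300 genes gave 0.95 for Atf4, 0.72 for Ddit3, 1.19 for Asns, 0.89 for Hspa5, 1.01 for Xbp1, 0.57 for Ddit4 and 0.67 for Gdf15. Chac1, with 19 and 21 UMIs, was lower there at -1.10 (-2.07 to -0.13). From 300 up to but not including 1000 genes the ratios were 0.89 for Atf4, 1.71 for Asns, 0.94 for Hspa5 and 0.90 for Xbp1. Above 5000 genes they were 0.53 for Atf4, 0.22 for Asns, 0.63 for Hspa5, 0.71 for Xbp1, 0.61 for Ddit4 and 0.72 for Gdf15. Lower in these barcodes were Chac1, at -1.93 (-2.51 to -1.37), and Trib3, at -0.81 (-1.40 to -0.21). These barcodes hold EC, melanoma and other RNA together.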

How the results depend on the processing

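No paired analysis was possible because the control and B16-F10 groups hold 1 library apiece. The Gdf15 ratio in gCap-like ECs (1.37) was 1.91 without doublet removal, 1.96 with cells thinned to 2000 UMIs, 0.84 with the cluster makeup held equal in both libraries and 0.93 without the Lalba-led cluster. The median of the members in gCap-like ECs (0.54) was 0.41 with equal makeup and 0.27 without the Lalba-led cluster, where 3 of 10 members were higher in place of 5. The number of pathway lists with a median of at least 0.5 (2) was 1 with thinned cells and 1 without the Lalba-led cluster. Equal makeup and the exclusions of a cluster were chosen after the data had been seen. Of 32 member ratios 28 kept their direction in every alternative that gave a value. Of the 19 past 0.5 in size all 19 kept direction and 11 kept their side of 0.5. The others were Atf4 (0.31 to 0.42 in the alternatives that lost it) and Asns (0.32 to 0.50) in aCap-like ECs, Hspa5 in artery-like (0.15 to 0.49) and vein-like ECs (0.45), Atf4 in artery-like (0.33) and vein-like ECs (0.48), and Atf4 (0.47) and Xbp1 (0.31) in gCap-like ECs. The aCap-like Gdf15 ratio ranged from 1.04 to 1.52. With a minimum of 10 UMIs the gCap-like background was 12.9% higher and 16.9% lower, and with no minimum 19.3% and 24.4%. Depth limits artery-like, vein-like and LEC-like ECs most, where Gdf15 and Asns gave few UMIs.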
